A study of Mus musculus with 60 samples.

Results

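The transcripts of mouse hippocampus were compared between postnatal day 10 (P10) and P15 in 2 paxillin genotypes, with genotype as a term. The rule took the 4 hippocampus libraries of each age, which are 8 of the 60 libraries of the series and 8 of its 12 hippocampus libraries. Full-length cDNA was made from total RNA with a SMART-Seq mRNA kit, amplified by PCR and read on a Nanopore PromethION, whose long reads can span a transcript. How complete the reads were was not tested. The series asks how nuclear paxillin, a protein of focal adhesions that also enters the nucleus, bears on alternative splicing while young circuits mature.

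Each age had 2 control libraries and 2 S119A libraries. The S119A mice were Nestin-CreERT2; paxillin fl/S119A on C57BL/6J, given tamoxifen in the days before P10. In these animals the Cre, driven by the Nestin promoter, removes the floxed allele. It also removes a floxed stop cassette ahead of the allele that encodes alanine in place of the serine studied. The label of these mice reads paxillin KO, paxillin-S119A-KI. The control label is wild type, while the supplement of the study describes littermates with the same paxillin alleles and no Cre. The alleles of the controls are therefore not settled here. The methods state that controls were littermates given tamoxifen and handled in the same way. That statement follows a description of crosses with TRAP2, another Cre line of the study. The labels call the tissue bulk hippocampus and do not say whether the libraries of a group come from separate mice, so the p-values may measure technical spread. In bulk tissue, fewer cells of a type and less RNA per cell cannot be told apart.

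The libraries held 5450120 and 5454696 reads in control and 5064015 and 5400967 in S119A at P10. At P15 they held 5687908 and 4923450 reads in control and 5286246 and 3162777 in S119A. Both P15 libraries numbered 2 stood apart from the other 6. Between the libraries of a group, 28.2% (control) and 28.6% (S119A) of 13340 genes differed by more than 2-fold at P15, against 2.94% and 3.07% at P10. Mitochondrial ribosomal RNA took 3.42% and 3.98% of their reads, against 0.592% to 1.09% elsewhere. The fit therefore carried a term for these 2 libraries, and 6366 genes passed the test for it, 2913 higher and 3453 lower. Its median was 0.40 on the log2 scale in the 3101 genes whose most read transcript was at most 1881 bases long, and -0.07, -0.22 and -0.15 in the 3 classes of like size with longer transcripts. With this term, the change with age rests on the 2 P15 libraries numbered 1 against the 4 P10 libraries, and the P15 libraries numbered 2 inform only the genotype term and the spread. In the fit that lets the change with age differ between genotypes, they also inform that difference. Total Pxn, the paxillin gene, held 10.5, 22.6, 7.48 and 12.4 CPM (counts scaled to the reads of each library) at P10 and 20.3, 16.0, 8.68 and 10.0 at P15. Here and below, values stand in the order control 1, control 2, S119A 1, S119A 2. The ages overlapped in Pxn (log2 change 0.09 ± 0.27 SE, edgeR adjusted p = 0.87), and a total count does not read the S119A codon, so the genotype labels were not checked by it.

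Between these ages the rodent hippocampus forms synapses quickly, its inhibitory and excitatory receptors exchange subunits, and its axons begin to be wrapped in myelin by oligodendrocytes. Over the same days many neuronal genes change which exons they keep. A cassette exon is kept or skipped whole, and some exons come in pairs of which a transcript carries only 1. A change of exon can alter a protein with no change in the level of the gene, which is why gene levels and shares within genes are given separately.

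The exons below, whose inclusion is described further on, are shown 5′ to 3′ as GENCODE vM21 transcripts give them, in build GRCm38 (mm10). In the single exons, capitals mark the exon and the 12 lower-case bases at each side belong to the neighbouring exons of the transcript. The Ndrg4 exon of 39 bases lies at chr8:95712325-95712363 on the plus strand, and the Camkk2 exon of 43 bases at chr5:122736988-122737030 on the minus strand. The Kif1a exon of 24 bases lies at chr1:93026832-93026855 on the minus strand. The Clta exons of 54 and 36 bases lie at chr4:44030215-44030268 and chr4:44031400-44031435 on the plus strand. The Grin1 exons of 63 and 111 bases lie at chr2:25311343-25311405 and chr2:25294438-25294548 on the minus strand.
Ndrg4 39-base exon: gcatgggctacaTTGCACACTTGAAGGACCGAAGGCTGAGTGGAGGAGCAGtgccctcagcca
Camkk2 43-base exon: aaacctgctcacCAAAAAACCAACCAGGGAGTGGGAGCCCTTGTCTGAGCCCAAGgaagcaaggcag
Kif1a 24-base exon: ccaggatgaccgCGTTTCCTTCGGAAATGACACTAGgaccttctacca
Clta 54-base exon: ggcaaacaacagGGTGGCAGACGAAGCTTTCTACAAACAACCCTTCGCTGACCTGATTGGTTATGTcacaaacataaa
Clta 36-base exon: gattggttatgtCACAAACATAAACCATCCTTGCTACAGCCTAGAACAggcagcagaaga
Grin1 63-base exon: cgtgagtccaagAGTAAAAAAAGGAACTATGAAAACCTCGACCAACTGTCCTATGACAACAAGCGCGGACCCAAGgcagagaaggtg
Grin1 111-base exon: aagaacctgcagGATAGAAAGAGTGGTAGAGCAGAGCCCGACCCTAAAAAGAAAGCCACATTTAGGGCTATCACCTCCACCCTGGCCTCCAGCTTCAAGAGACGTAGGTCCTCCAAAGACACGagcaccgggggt

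Of these 7 exons, the Camkk2 exon is the only one whose length is not a multiple of 3, with a remainder of 1, so that the reading frame after it differs between transcripts with and without it. The other 6 add whole codons, from 8 in Kif1a to 37 in the longer Grin1 exon.

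In Gria1 and Snap25 the choice is between a pair of neighbouring exons of equal length, and here capitals mark the bases that differ between the pair. The Gria1 pair, at chr11:57309769-57309883 and chr11:57310608-57310722 on the plus strand, differs at 36 of 115 bases and is 68.7% identical. The Snap25 pair, at chr2:136769743-136769860 and chr2:136770057-136770174 on the plus strand, differs at 31 of 118 bases and is 73.7% identical.
Gria1 upstream exon: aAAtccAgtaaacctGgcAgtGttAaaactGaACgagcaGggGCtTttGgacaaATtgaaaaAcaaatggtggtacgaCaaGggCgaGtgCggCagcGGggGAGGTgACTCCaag
Gria1 downstream exon: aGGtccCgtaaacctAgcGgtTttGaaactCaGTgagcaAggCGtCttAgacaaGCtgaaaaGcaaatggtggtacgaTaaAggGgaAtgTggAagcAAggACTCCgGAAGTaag
Snap25 upstream exon: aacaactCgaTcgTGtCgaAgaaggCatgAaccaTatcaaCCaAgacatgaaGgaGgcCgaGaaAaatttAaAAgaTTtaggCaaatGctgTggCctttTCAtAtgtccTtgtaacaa
Snap25 downstream exon: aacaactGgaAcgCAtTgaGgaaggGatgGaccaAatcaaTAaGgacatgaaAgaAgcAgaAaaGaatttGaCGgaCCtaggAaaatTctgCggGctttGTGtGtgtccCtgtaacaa

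From P10 to P15, 20 of 20 myelin genes rose and 19 of 22 genes of immature neurons fell. Of 13340 genes with enough reads, 2169 (16.3%) passed edgeR's quasi-likelihood test at a Benjamini-Hochberg adjusted p under 0.05. Of these, 1152 were higher at P15 (8.64% of the genes tested) and 1017 were lower (7.62%), and the median change over all genes was -0.01 on the log2 scale. Changes of at least 1 on that scale numbered 291 up and 227 down, and changes of at least 2 numbered 61 and 41. The count rests on the P15 libraries numbered 1, since it was 608 without the control P15 replicate 1 and 531 without the S119A P15 replicate 1. The 4 P15 libraries lay wholly above the 4 P10 libraries in 1556 genes (11.7% of those tested) and wholly below in 1645 (12.3%), and 1396 genes were both called and free of overlap.

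The genes with the largest changes formed 2 kinds. Among called genes without overlap and with at least 20 CPM at the higher age, all 6 of the largest rises were in myelin genes. Mobp, a protein of compact myelin on chromosome 9, held 12.7, 13.2, 8.25 and 6.38 CPM at P10 and 287, 348, 256 and 64.6 at P15. Mog, on the outer face of the sheath, held 5.82, 9.81, 7.29 and 8.39 CPM at P10 and 231, 389, 188 and 47.5 at P15. In both genes every P15 library lay above every P10 library, and the S119A replicate 2 was the lowest of its age. Mobp rose by 4.89 ± 0.32 SE and Mog by 4.82 ± 0.43 on the log2 scale (edgeR adjusted p = 4.6e-07 and 6.3e-06). Mal rose by 4.31, Mag by 4.23 and Cldn11, which forms the tight junctions of myelin, by 3.58.

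The 6 largest falls included genes of immature glia and growing neurons. Fabp7, a fatty acid binding protein of radial glia and young astrocytes, held 1066, 1125, 1032 and 781 CPM at P10 and 225, 226, 180 and 492 at P15, a change of -2.30 ± 0.25 SE (edgeR adjusted p = 2.9e-05). The S119A P15 replicate 2 was again the odd library, nearer to P10 than the other 3. Dpysl5, a collapsin response mediator of axon growth, held 215, 205, 202 and 219 CPM at P10 and 54.3, 42.2, 56.1 and 46.2 at P15 (log2 change -1.93 ± 0.11). Its libraries were close within each age, with no single library apart. Its relative Dpysl3 changed by -1.95, S100a10 by -2.03, the signalling adaptor Sla by -1.85 and the cell surface protein Cd24a by -1.81. S100a10 was the only 1 of these 12 genes no longer called with the term for the P15 libraries numbered 2 left out.

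**Figure D1:**
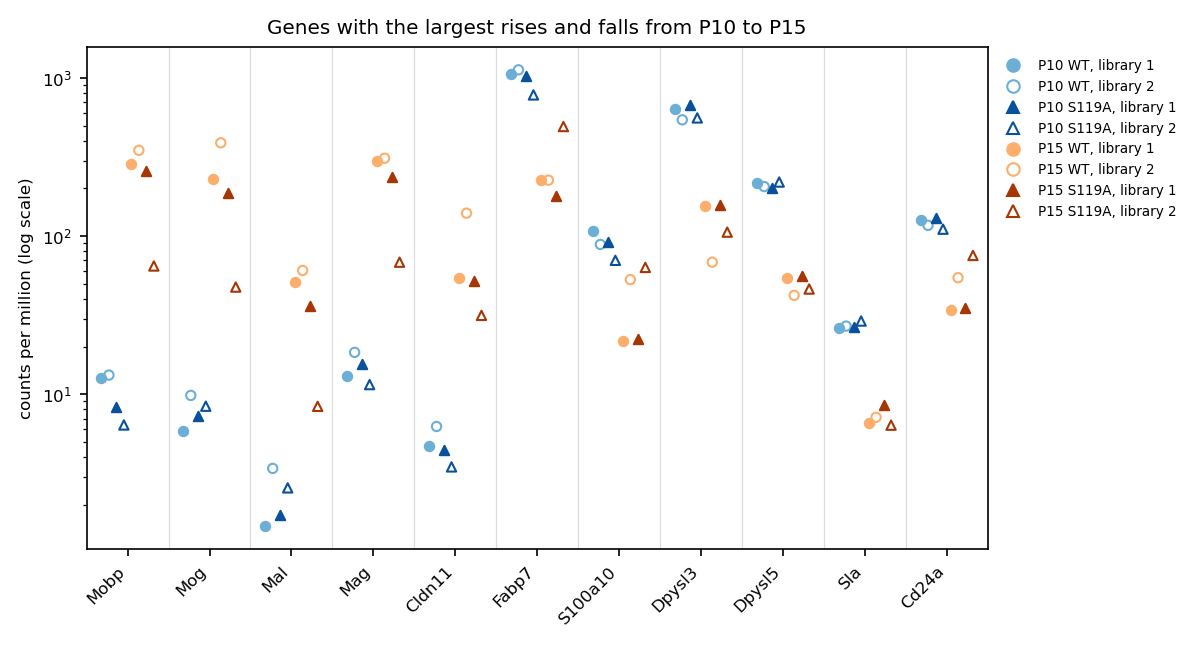
Level of 11 genes among the 12 with the largest changes, in CPM on a log axis, with 1 point per library, circles for control, triangles for S119A, and open symbols for the libraries numbered 2. Mobp rises from between 6.38 and 13.2 CPM at P10 to between 64.6 and 348 at P15, and Fabp7 falls from between 781 and 1125 to between 180 and 492.

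Of 20 myelin genes, 20 rose and none fell, with a median log2 change of 2.98 against -0.01 over all genes. Summed over the list, the libraries held 420, 580, 450 and 471 CPM at P10 and 3161, 3338, 2748 and 1024 at P15, so that the S119A P15 replicate 2 lay between the ages. The median was 3.33 in control and 2.61 in S119A, and no gene passed the test of a difference between genotypes in the change with age. These medians per genotype come from the fit in which the P15 libraries numbered 2 also count, the low S119A replicate 2 among them. Opalin, a membrane protein of mature oligodendrocytes, had no read in any P10 library and 19, 24, 14 and 0 reads at P15. Against the floor of 3 reads over the 4 P10 libraries, it was at least 21.4-fold higher in the P15 libraries numbered 1, and the median of the list stayed at 2.98 with Opalin at that bound. With DESeq2, 19 of the list had an adjusted p and all 19 were called, while Opalin had none. With no term for the P15 libraries numbered 2, 13 of the 20 were called.

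Genes of oligodendrocyte precursors changed less evenly, with 4 of 11 higher, 1 lower and 6 not past the threshold (median 0.24). Neu4, a sialidase, held 4.91, 5.53, 3.45 and 5.29 CPM at P10 and 17.9, 11.7, 16.6 and 15.4 at P15, without overlap (log2 change 1.84). Gpr17, a receptor of cells about to differentiate, rose by 1.03 and the lineage transcription factor Sox10 by 0.76, while Ptprz1, a receptor phosphatase of precursors and astrocytes, changed by -0.83. The list summed to between 867 and 930 CPM at P10 and to 982, 626, 972 and 691 at P15. With no term for the P15 libraries numbered 2 its median was -0.27, with 2 called higher and none lower, Ptprz1 no longer called. Without the S119A P15 replicate 1, 2 of the list were called higher and Sox10 was no longer called. Genes of cholesterol synthesis, the pathway whose product myelin membrane is rich in, went the other way, with 10 of 19 lower, none higher and 9 not past the threshold (median -0.46). Sqle, the squalene epoxidase, held 502, 526, 542 and 590 CPM at P10 and 337, 263, 322 and 276 at P15, with every P15 library below every P10 library (log2 change -0.71 ± 0.10 SE, edgeR adjusted p = 0.00019). Nsdhl changed by -0.82 and Mvd by -0.70, and 4 or 5 genes of the list were called without the control or the S119A P15 replicate 1, Mvd no longer without the control.

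Of 22 genes of immature neurons and axon growth, 19 fell and none rose, with a median log2 change of -1.14. The list summed to between 23420 and 23679 CPM in the P10 libraries and to 12439, 15771, 13164 and 15418 at P15. Cd24a, among the 3 largest falls of the list beside Dpysl3 and Dpysl5, held 127, 117, 131 and 110 CPM at P10 and 34.0, 54.5, 35.3 and 75.3 at P15. The P15 libraries lay below the P10 libraries in 18 of the 22 genes, against 12.3% of all genes, and 15 were called with either P15 library numbered 1 left out.

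Of 16 tested genes of dividing cells and progenitors, 9 fell, 1 rose and 6 did not pass (median -1.37). Top2a, the topoisomerase that untangles replicated chromosomes, held 5.82, 5.35, 6.14 and 6.02 CPM at P10 and 0.521, 1.51, 1.48 and 1.67 at P15. Cdk1, the kinase that drives entry into mitosis, held 12.5, 11.2, 11.5 and 10.2 CPM at P10 and 2.78, 1.95, 2.95 and 4.35 at P15. Neither gene overlapped between the ages, and they changed by -2.54 ± 0.38 SE and -1.98 ± 0.28 on the log2 scale (edgeR adjusted p = 0.00039 and 0.00023). Ube2c, which helps end mitosis, changed by -2.14. The gene that rose, Hopx (0.50), is kept by quiescent stem cells of the dentate gyrus and by astrocytes and was not called without the S119A P15 replicate 1. The summed level of the list did not follow the falls, at 694 to 760 CPM at P10 and 644, 960, 730 and 885 at P15, since Hopx alone held 272 to 303 CPM at P10 and 391 to 633 at P15.

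**Figure D2:**
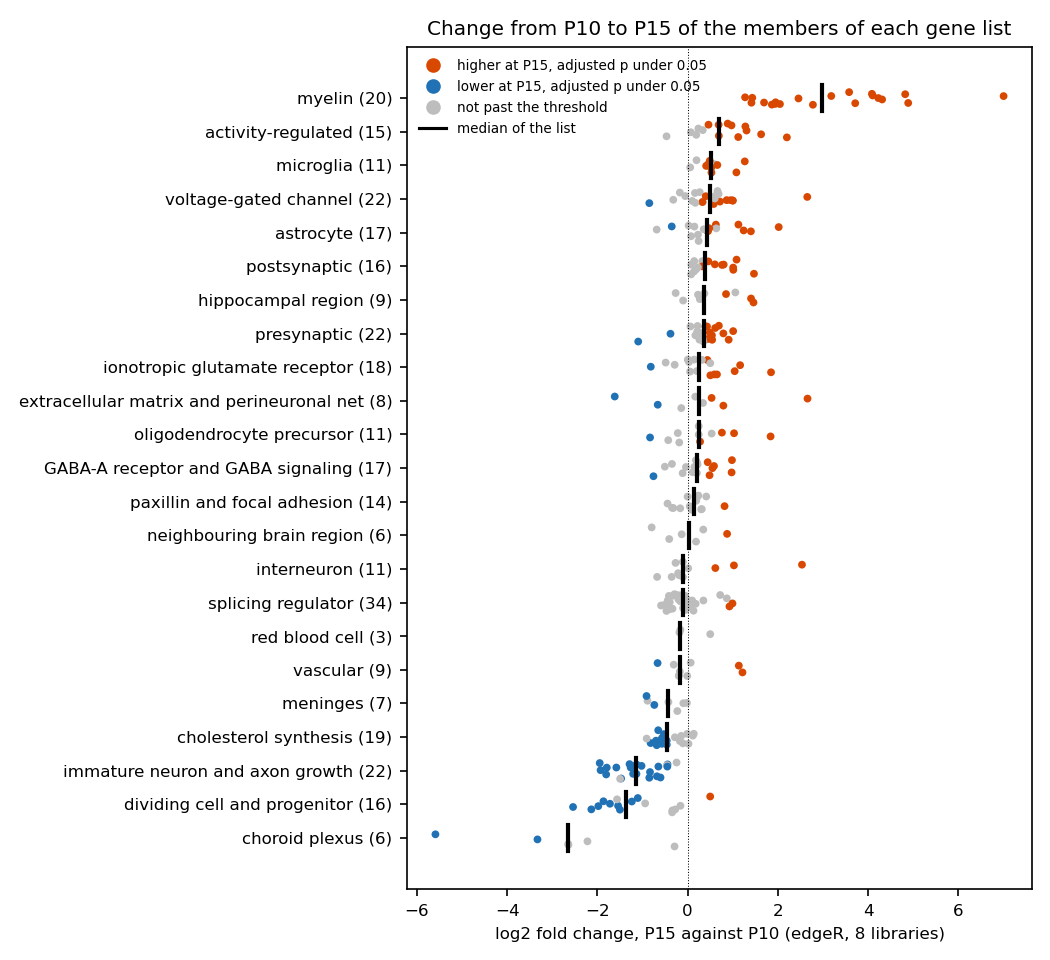
Log2 change from P10 to P15 for each tested member of each of 23 gene lists, with 1 point per gene coloured by whether it was called higher, called lower or not called, and the median of each list marked. All 20 myelin genes lie to the right of zero and 19 of 22 immature neuron genes are called to the left, and the rightmost point is the fitted value of Opalin, which had no read at P10.

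Receptors for glutamate, the main excitatory transmitter, changed by subunit. Of 18 ionotropic receptor subunits and their partners, 7 rose, 1 fell and 10 did not pass (median 0.26). Grin2a, the NMDA receptor subunit that takes over from Grin2b in maturing synapses, held 159, 127, 153 and 132 CPM at P10 and 280, 442, 308 and 382 at P15. Every P15 library exceeded every P10 library, and the change was 1.04 ± 0.11 SE on the log2 scale (edgeR adjusted p = 2.6e-05). Cacng3, an auxiliary subunit of AMPA receptors, rose by 1.16, while Grin3a, a subunit of juvenile NMDA receptors, changed by -0.82 and overlapped between ages. Grin2c rose by 1.85 at 0 to 5.55 CPM. Without the control P15 replicate 1, 3 of the list were called higher and none lower, with Grin2c and Grin3a no longer called, and without the S119A P15 replicate 1 there were 1 higher and 1 lower, with Grin2c and Cacng3 no longer called. The summed level of the list stood at 4654 to 5262 CPM at P10 and 5881, 1268, 5495 and 1217 at P15, so the P15 libraries numbered 2 held far fewer of these reads.

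Among 17 tested genes of GABA-A receptors and GABA signalling, 6 rose, 1 fell and 10 did not pass (median 0.20). Gabrd, a subunit of receptors outside synapses, held 9.82, 6.96, 7.10 and 10.6 CPM at P10 and 18.0, 19.0, 16.1 and 14.1 at P15, without overlap (log2 change 0.98). Gabra3, a subunit of early development, held 54.5, 56.5, 45.5 and 58.3 CPM at P10 and 28.8, 20.1, 34.7 and 16.4 at P15 (-0.76). Slc12a2, the transporter that loads young neurons with chloride, rose by 0.97, and Gad2, which makes GABA, by 0.58. With no term for the P15 libraries numbered 2 the median of the list was -0.19, with 1 called higher and none lower. No gene of the list was called higher when either P15 library numbered 1 was left out. Gabra3 was the gene called lower without the S119A P15 replicate 1, and it too lost its call without the control P15 replicate 1.

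Voltage-gated channel genes rose in 9 of 22 cases, with 1 lower and 12 not past the threshold (median 0.49). Scn4b, a sodium channel beta subunit, held 0.727, 2.14, 1.53 and 0.547 CPM at P10 and 9.37, 12.8, 6.09 and 2.34 at P15, low levels that did not overlap (log2 change 2.65). Scn2b rose by 1.00 without overlap. Cacna1a, the P/Q-type calcium channel, changed by -0.85. Without the control or the S119A P15 replicate 1, 4 or 5 of the list were called higher and none lower, so Cacna1a lost its call with either, as did Scn2b.

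Of 22 presynaptic genes, 11 rose, 2 fell and 9 did not pass (median 0.37), and of 16 tested postsynaptic genes 9 rose, none fell and 7 did not pass (median 0.39). The vesicular glutamate transporters moved apart. Slc17a7, which marks mature hippocampal and cortical excitatory neurons, held 1346, 1144, 1361 and 1224 CPM at P10 and 2102, 1761, 2292 and 1953 at P15, without overlap (log2 change 0.79 ± 0.09 SE, edgeR adjusted p = 5.9e-05). Slc17a6, which is used earlier and in subcortical neurons, held 40.7, 53.7, 35.3 and 43.2 CPM at P10 and 21.3, 9.30, 19.0 and 8.37 at P15, also without overlap (-1.10 ± 0.16). Vamp1, a vesicle SNARE, rose by 1.01 and the pentraxin Nptx1 by 0.91, and the membrane SNARE Stx1a changed by -0.38. Without either P15 library numbered 1, 4 presynaptic genes were called higher and 1 lower. Stx1a lost its call then and without the control P10 replicate 2, and Vamp1 without the control P15 replicate 1.

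On the postsynaptic side, Itpka, a kinase of dendritic spines that binds actin, held 100, 98.4, 92.7 and 105 CPM at P10 and 279, 217, 270 and 210 at P15. Camk2a, the kinase at the core of synaptic plasticity, held 475, 409, 492 and 462 CPM at P10 and 861, 1058, 997 and 1386 at P15. Both separated the ages in every library, with log2 changes of 1.47 ± 0.09 SE and 1.01 ± 0.10 (edgeR adjusted p = 4.1e-07 and 1.1e-05). Ddn, which encodes dendrin, a protein of dendrites, rose by 1.08. Postsynaptic genes did not overlap in 10 of 16 cases with P15 higher, against 11.7% of all genes, and 6 were called with either P15 library numbered 1 left out.

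Of 15 tested activity-regulated genes, most of them immediate early genes that neurons switch on within minutes of firing, 10 rose. The other 5 did not pass the threshold, and the median was 0.69. Arc, which controls AMPA receptor traffic, held 50.4, 54.9, 60.1 and 80.9 CPM at P10 and 286, 223, 278 and 161 at P15. Nr4a1, a nuclear receptor, held 40.7, 33.0, 37.4 and 44.1 CPM at P10 and 121, 117, 119.1 and 95.8 at P15. Neither gene overlapped, and they rose by 2.20 ± 0.16 SE and 1.63 ± 0.12 on the log2 scale (edgeR adjusted p = 1.1e-06 and 1.5e-06). Egr4 rose by 1.30 on the P15 libraries numbered 1 (90.4 and 108 CPM), while those numbered 2 held 11.5 and 13.1, below the 35.8 to 47.0 at P10. The list counted 6 called higher without the S119A P15 replicate 1.

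The matrix around neurons exchanged members, with 3 of 8 tested genes higher, 2 lower and 3 not past the threshold. Hapln4, a link protein of perineuronal nets and nodes, held 3.82, 5.35, 3.26 and 4.56 CPM at P10 and 28.1, 18.4, 25.8 and 23.8 at P15 (log2 change 2.66 ± 0.20 SE, edgeR adjusted p = 1.3e-06). Tnc, the tenascin of developing tissue, held 27.3, 27.6, 33.8 and 29.4 CPM at P10 and 10.4, 5.19, 8.68 and 7.03 at P15 (-1.62 ± 0.17), and the proteoglycan Ncan of juvenile brain changed by -0.66. The ages did not overlap in these genes. Tnr, the adult tenascin, rose by 0.79 and the proteoglycan Bcan by 0.53, but the P15 libraries numbered 2 lay below P10 in both, and with no term for them Bcan was at -0.17. Bcan lost its call without the S119A P15 replicate 1.

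Among glia, 8 of 17 astrocyte genes rose, 1 fell and 8 did not pass (median 0.44), and 8 of 11 tested microglia genes rose, none fell and 3 did not pass (median 0.52). Aldoc, a glycolytic enzyme of astrocytes, held 609, 524, 632 and 608 CPM at P10 and 1570, 1526, 1556 and 2117 at P15, without overlap (log2 change 1.40 ± 0.10 SE, edgeR adjusted p = 1.3e-06). Gjb6, a connexin of astrocyte gap junctions, rose by 2.02 and S100b by 1.24. The transcription regulator Id3 changed by -0.35 and was at 0.24 with no term for the P15 libraries numbered 2, and it lost its call on leaving out any 1 library other than the S119A P10 replicate 2 and the P15 libraries numbered 2. Tmem119, a microglial membrane protein, held 18.2, 16.2, 13.2 and 18.4 CPM at P10 and 43.9, 41.3, 35.8 and 35.2 at P15, without overlap (1.27), while the protease Ctss rose by 1.08 and the receptor Csf1r by 0.66. The astrocyte count was 5 with either P15 library numbered 1 left out. The microglia count was 2 without the control P15 replicate 1, where Csf1r lost its call, and 3 without the S119A P15 replicate 1.

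Interneuron genes rose in 3 of 11 tested cases, with none lower, 8 not past the threshold and a median of -0.11. Pvalb, the calcium buffer of fast-spiking interneurons, held 0.727, 2.50, 0.192 and 1.09 CPM at P10 and 7.46, 19.0, 5.72 and 10.4 at P15, without overlap (log2 change 2.53 ± 0.41 SE, edgeR adjusted p = 0.0007). The neuropeptide Vip rose by 1.03 and the neuregulin receptor Erbb4 by 0.61, and 1 gene of the list was called with either P15 library numbered 1 left out, where Vip and Erbb4 lost their calls.

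Markers of hippocampal regions were checked against the label of the tissue. All 9 had reads, with 3 of 9 higher at P15, none lower and 6 not past the threshold (median 0.37). C1ql2, of dentate granule cells, held 32.5, 29.6, 28.6 and 31.4 CPM at P10 and 85.9, 29.0, 82.0 and 37.8 at P15 (log2 change 1.46). Wfs1, of CA1 pyramidal cells, rose by 1.40 and Spink8 by 0.85, the latter no longer called with either P15 library numbered 1 left out. Markers of neighbouring regions summed to between 83.0 and 170 CPM, and 1 of 6 tested rose, Ppp1r1b by 0.87, which lost its call with either P15 library numbered 1 left out.

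Tissue at the edge of the hippocampus varied between libraries more than between ages. Ttr, secreted by choroid plexus, held 175, 5148, 1929 and 517 CPM at P10 and 122, 8315, 223 and 5552 at P15, so the ages overlapped. It was called lower (log2 change -3.33 ± 0.96 SE, edgeR adjusted p = 0.029), yet was at 0.95 with no term for the P15 libraries numbered 2, and lost its call without the S119A P10 replicate 1 or either P15 library numbered 1. Folr1, of the same tissue, held 0, 14.6, 5.56 and 1.46 CPM at P10 and 0.174, 16.0, 0 and 8.04 at P15 and was at 0.07 with no such term, with no call without the control P10 replicate 2 or the S119A P10 replicate 1. In all, 2 of 6 choroid plexus genes and 2 of 7 meningeal genes, Igf2 (-0.91) and Dcn (-0.74), were called lower and none higher, with no gene free of overlap and none called higher or lower with either P15 library numbered 1 left out. Of 9 vascular genes, Slco1a4 (1.21) and Ly6c1 (1.13) rose and the tight junction gene Cldn5 changed by -0.67, and of 3 tested red blood cell genes none passed. Cldn5 lost its call without the S119A P15 replicate 1. Dcn also lost its call without the S119A P10 replicate 2. The part of these tissues in the other changes was not tested.

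Of 34 splicing regulators, 2 rose, none fell and 32 did not pass, with a median log2 change of -0.11, 10 positive and 24 negative. In 8 of the 34 every P15 library lay below every P10 library, against 12.3% of all genes. With the P15 libraries numbered 2 dropped, 4 were called higher and 2 lower. Mbnl2, of the muscleblind family that favours adult splice forms, held 81.1, 61.0, 78.3 and 85.5 CPM at P10 and 153, 99.7, 151 and 89.4 at P15, without overlap (log2 change 0.99 ± 0.12 SE, edgeR adjusted p = 9.1e-05). Rbfox1, which binds beside many neuronal exons, held 55.1, 43.5, 63.9 and 52.0 CPM at P10 and 103, 54.5, 100 and 50.9 at P15 (0.93 ± 0.13), with the P15 libraries numbered 2 at P10 levels. Neither was called with no term for those libraries. Of 14 tested genes of paxillin and focal adhesion, 1 rose, Ptk2b, a calcium-sensitive kinase of the focal adhesion kinase family (0.82 ± 0.12), and 13 did not pass.

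Exon inclusion was read from the long reads as the percentage of reads on transcripts that keep an exon among reads on transcripts that keep or skip it. The pairing of RefSeq and Ensembl transcripts is GENCODE's, and it gave a structure to transcripts holding 80.2% of the reads, so the shares leave out reads on unpaired transcripts. Of 1039 exons or groups of exons in 842 genes, 109 (10.5%) in 92 genes changed with age by edgeR's quasi-likelihood test of the inclusion odds, 66 with higher inclusion at P15 (6.35%) and 43 with lower (4.14%). The count was 43 without the control P15 replicate 1 and 48 without the S119A P15 replicate 1. Among the 109, 81 did not overlap between ages, against 9.14% of all tested exons wholly higher and 7.99% wholly lower. For single coding exons, 72.9% of those that rose and 80.0% of those that fell had a length that is a multiple of 3, near the 72.3% of all such exons tested.

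The 39-base exon of Ndrg4, a member of the NDRG family found in neurons, had the largest change in points among called exons without overlap and with at least 50 reads in every library. It was kept in 36.4%, 33.3%, 31.7% and 35.8% of reads at P10 and 75.9%, 79.7%, 76.1% and 78.2% at P15. The 43-base exon of Camkk2, a kinase upstream of CaM kinases and AMPK, was kept in 48.4%, 42.4%, 44.3% and 44.0% at P10 and 85.5%, 81.2%, 83.0% and 78.1% at P15. In both, all 4 libraries of an age lay within a few points of each other, the P15 libraries numbered 2 included. The mean rose from 34.3% ± 2.20 (SD, n = 4) to 77.4% ± 1.81 in Ndrg4, on 5075 to 12458 reads per library, and from 44.7% ± 2.54 to 82.0% ± 3.12 in Camkk2, on 128 to 601 reads (edgeR adjusted p = 1.3e-16 and 9.3e-14).

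AMPA receptor transcripts carry either of a pair of exons, known as flip and flop, that set how fast the channel desensitises. The upstream Gria1 exon, printed above, was kept in 33.3%, 28.1%, 24.8% and 36.0% of reads at P10 and 53.4%, 54.1%, 61.1% and 51.7% at P15, and its downstream partner took the rest. The lowest P15 library lay above the highest P10 library, and the mean rose from 30.5% ± 5.06 (SD, n = 4) to 55.1% ± 4.13 on 209 to 494 reads (edgeR adjusted p = 2.5e-07). In Gria4, the same choice rested on 18 to 59 reads per library and the ages overlapped (edgeR adjusted p = 0.31). The upstream Snap25 exon, called 5a, fell in every library, from a mean of 37.4% ± 1.70 to 17.9% ± 1.88, in favour of 5b (edgeR adjusted p = 1.6e-10).

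Grin1, the subunit common to all NMDA receptors, changed at 2 exons. The 63-base exon, known as N1, was kept in 6.85%, 5.84%, 5.43% and 5.32% of reads at P10 and 10.3%, 9.51%, 8.98% and 12.6% at P15, a small rise without overlap (edgeR adjusted p = 0.027). The 111-base exon, known as C1, was kept in 54.6%, 55.1%, 56.5% and 50.7% at P10 and 35.6%, 6.69%, 39.4% and 8.80% at P15. Every P15 library was below P10, but those numbered 2 lay far below those numbered 1. The mean of the P15 libraries numbered 1, 37.5%, was 16.7 points below P10, and the C1 exon was not called with no term for the libraries numbered 2. The N1 exon lost its call on leaving out either S119A P10 library or either P15 library numbered 1.

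The 2 neuronal exons of Clta, the clathrin light chain a, moved in opposite directions. The 54-base exon fell from a mean of 55.8% ± 5.00 (SD, n = 4) to 36.7% ± 2.29, with values of 48.5% to 59.3% at P10 and 33.5% to 38.7% at P15 (edgeR adjusted p = 2.4e-05). The 36-base exon rose from 4.20% ± 0.83 to 12.9% ± 2.55, with values of 3.10% to 5.07% at P10 and 10.6% to 16.5% at P15 (edgeR adjusted p = 1.3e-06). Neither exon overlapped between the ages. Both are counted on the same 200 to 1104 reads per library.

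The other exons among the 12 largest changes had, by the rule that chose them, every P15 library on the same side of every P10 library. The exon of Pdlim7, an actin-associated scaffold, fell from 63.3% ± 2.61 (SD, n = 4) to 28.7% ± 4.13, and a group of 2 exons of Pip5k1c, which makes a signalling lipid at synapses and adhesions, from 81.8% ± 2.75 to 52.1% ± 3.54. The 24-base exon of Kif1a, the motor that carries synaptic vesicle precursors, fell from 53.3% ± 4.84 to 32.6% ± 5.88 and lost its call with either P15 library numbered 1 left out. The 30-base exon of Clstn1, which links cargo to kinesin, rose from 33.7% ± 1.09 to 52.8% ± 9.81, but the P15 libraries numbered 1 stood at 43.7% and 46.2% on 2560 and 2369 reads and those numbered 2 at 65.1% and 56.0% on 86 and 75 reads. Clstn1 lost its call without the S119A P15 replicate 1. Among exons not wholly coding in the transcripts that keep them, a group of 2 exons of St6galnac6, a sialyltransferase, rose from 73.2% ± 3.58 to 95.0% ± 6.21. Its P15 libraries numbered 1 stood at 92.6% and 87.2%, and both numbered 2 at 100% on 116 and 54 reads. A 53-base exon of Dnajc5, a chaperone of synaptic vesicles, rose from 58.3% ± 2.25 to 78.0% ± 0.89. The Dnajc5 exon was not called with either P15 library numbered 1 left out.

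**Figure D3:**
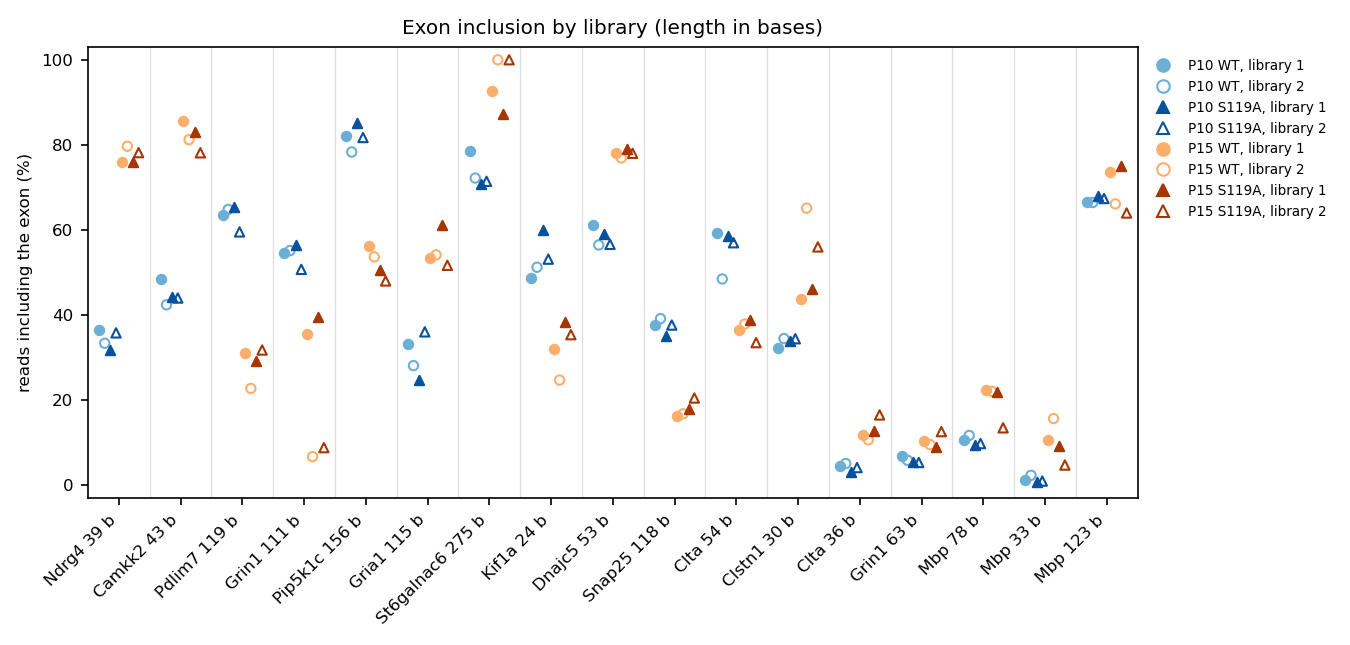
Percentage of reads that keep the exon for 17 called exons, the 12 with the largest changes at the left and 5 further exons of Clta, Grin1 and Mbp at the right, with 1 point per library, circles for control, triangles for S119A, and open symbols for the libraries numbered 2. Ndrg4 moves from between 31.7% and 36.4% at P10 to between 75.9% and 79.7% at P15, and the 111-base exon of Grin1 is a case where the P15 libraries numbered 2, at 6.69% and 8.80%, leave those numbered 1, at 35.6% and 39.4%.

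Exons of myelin and of the axon also shifted. In Mbp, which glues myelin membranes together, the 78-base exon was kept in 10.6%, 11.7%, 9.47% and 9.76% of reads at P10 and 22.3%, 22.0%, 21.8% and 13.5% at P15 (edgeR adjusted p = 2.7e-06). The 33-base exon of Mbp was kept in 1.15%, 2.30%, 0.728% and 0.952% at P10 and 10.7%, 15.6%, 9.14% and 4.71% at P15 (edgeR adjusted p = 6.3e-09). The S119A P15 replicate 2 was lowest of its age in both, as it was in the level of the myelin list. In Nfasc, the cell adhesion protein of axon initial segments, nodes and the paranodal glia, a group of 5 exons fell from 97.3% ± 1.34 (SD, n = 4) to 87.3% ± 3.76 while a group of 2 exons rose from 2.66% ± 1.34 to 12.7% ± 3.76, which are the same reads counted from both sides, and the change lost its call without the control P15 replicate 1. Smaller rises in Map2 (85.7% to 92.4%, with overlap) and in the 123-base exon of Mbp (67.1% to 69.7%, with overlap) each lost their call with either P15 library numbered 1 left out. That Mbp exon stood at 66.4% to 68.0% at P10, at 73.5% and 75.1% in the P15 libraries numbered 1, and at 66.1% and 64.0% in those numbered 2. The Map2 call was also lost without the P10 replicate 1 of either genotype or the S119A P15 replicate 2, and that of the longest Mbp exon without any 1 P10 library other than the control replicate 2. Dnm1 did not pass at any of its 4 tested exons, and App at none of 3. The Dnm1 exons were counted on 220 to 1182 reads per library, against 535 to 5825 reads of the gene. Some Dnm1 transcripts changed their share, as given below. The 12-base exon of Dnm1 shows what the P15 libraries numbered 2 can do to a mean, at 46.3%, 51.0%, 43.1% and 49.6% at P10 and 48.8%, 8.44%, 49.4% and 7.27% at P15.

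Shares of whole transcripts within genes were tested for 16580 transcripts of 5626 genes, and 417 (2.52%) in 287 genes passed edgeR's test at an adjusted p under 0.05, 219 higher (1.32%) and 198 lower (1.19%). The count was 125 without the control P15 replicate 1 and 71 without the S119A P15 replicate 1. Of the 417, 316 did not overlap between ages, against 7.39% of all tested transcripts wholly higher and 7.75% wholly lower. Between P10 and the P15 libraries numbered 1, 152 of the 417 moved by at least 10 points. Among the 287 genes with a called transcript, 116 (40.4%) were also called in their level, against 18.0% of the 5626 genes, and these 116 were 5.35% of all called genes.

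Transcripts were ranked among those called, without overlap and with at least 50 reads of the gene in every library. The largest change in points, with all P15 libraries averaged, was in NM_146120.4 of Gsn, an actin-severing protein oligodendrocytes use as they wrap axons. It held 34.0%, 20.2%, 17.4% and 32.9% of the gene's reads at P10 and 79.6%, 76.5%, 79.1% and 53.2% at P15 (edgeR adjusted p = 0.013). The S119A P15 replicate 2, the library with the lowest summed level of myelin genes at P15, was also the lowest here. The call was lost on leaving out any 1 library other than the S119A P10 replicate 2 and the P15 libraries numbered 2.

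The transcripts of Ndrg4 (NM_001195006.2, from 31.3% ± 2.14 SD to a mean of 73.2%), Camkk2 (NM_145358.2, from 53.7% ± 2.52 to 17.4%) and Pdlim7 (NM_026131.4, from 33.9% ± 2.56 to 66.4%) moved with the exons above. Their reads are also counted for those exons, so these are not separate results. Pdlim7 lost its call without the S119A P15 replicate 1. In Mapre3, a protein that rides the growing ends of microtubules, XM_017320579.2 held 75.5%, 78.1%, 75.2% and 74.1% at P10 and 45.3%, 43.5%, 43.7% and 47.5% at P15. In Dlg2, a scaffold of the postsynaptic density, XM_006507772.4 held 56.2%, 63.9%, 65.2% and 60.6% at P10 and 30.8%, 35.7%, 32.1% and 36.8% at P15. By the rule that chose them, neither transcript overlapped between the ages. The P15 libraries numbered 1 and 2 lay together in both. Their edgeR adjusted p were 0.00023 and 0.029, and both were lost with either P15 library numbered 1 left out, the Dlg2 call also without any 1 P10 library other than the control replicate 1. NM_182716.4 of Nfasc changed from 74.4% ± 9.57 to a mean of 47.0% and lost its call on leaving out any 1 library other than the control P10 replicate 2 and the P15 libraries numbered 2.

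In transcripts of Pcdh1, Bcar1, Tapt1, Tspan4 and Rasgrp2, the P15 libraries numbered 1 lay nearer to P10 than the mean over all P15 libraries. XM_006526324.4 of the protocadherin Pcdh1 held 3.601%, 5.02%, 3.52% and 4.45% at P10 and 5.90%, 83.4%, 10.2% and 81.4% at P15, so its mean of 45.2% at P15 compares with 8.05% in the libraries numbered 1. NM_001198839.1 of Bcar1, an adaptor of focal adhesions, had a mean of 25.1% at P10, 61.9% at P15 and 38.1% in the P15 libraries numbered 1. The corresponding means were 15.7%, 48.0% and 29.8% for XM_006503939.4 of Tapt1, 11.5%, 40.1% and 22.9% for NM_001252588.1 of the tetraspanin Tspan4, and 20.3%, 48.9% and 36.1% for NM_001365062.1 of Rasgrp2, an activator of Rap. None of the 12 transcripts was called with no term for the P15 libraries numbered 2. Each of these 5 also lost its call without the S119A P15 replicate 1, and Bcar1, Tspan4 and Rasgrp2 without the control P15 replicate 1. The Bcar1 call was lost without any 1 P10 library, and the Rasgrp2 call without any but the control P10 replicate 1.

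**Figure D4:**
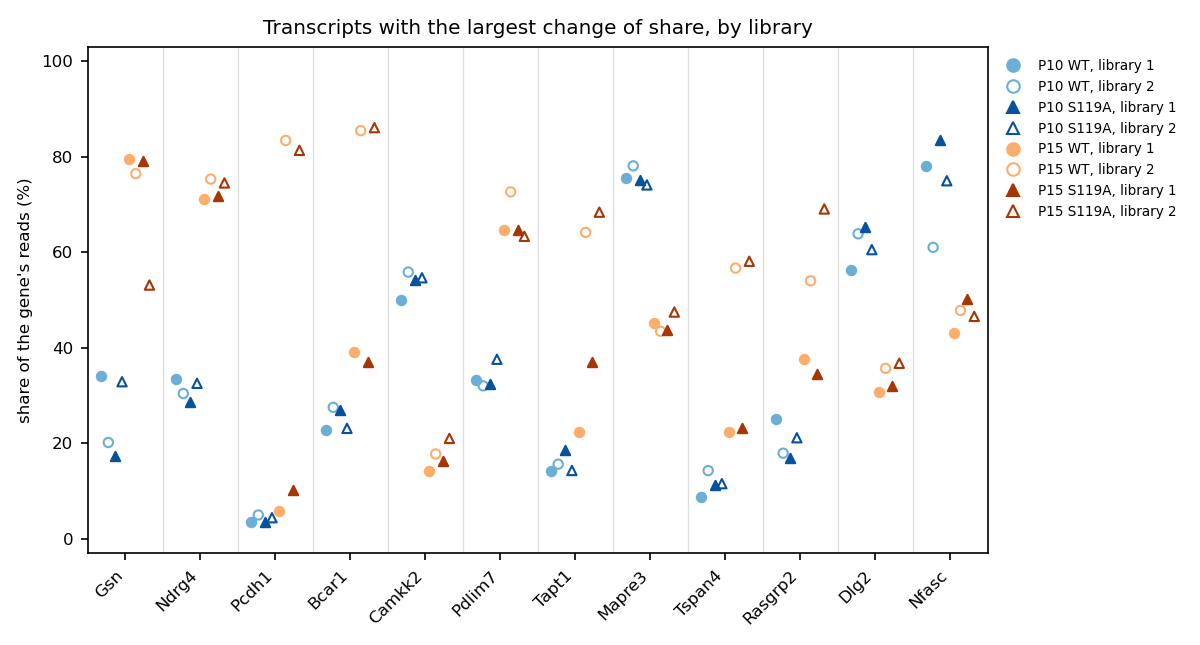
Share of the gene's reads held by each of the 12 transcripts with the largest changes, in percent, with 1 point per library, circles for control, triangles for S119A, and open symbols for the libraries numbered 2. In Mapre3 the 4 P15 libraries sit together between 43.5% and 47.5%, while in Pcdh1 those numbered 2, at 83.4% and 81.4%, lie far from those numbered 1, at 5.90% and 10.2%.

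In a list of genes known for developmental splicing, 32 transcripts of 15 genes changed their share among 198 tested in 30 genes, beside 2.52% of all transcripts tested. The list was chosen for known switches. Ncam1, the neural cell adhesion molecule, had 7 of them. Its NM_001113204.1 fell from 22.3% ± 1.45 (SD, n = 4) to a mean of 10.3% and its XM_017313198.2 rose from 6.20% ± 0.82 to 14.9%, neither with overlap (edgeR adjusted p = 7.5e-07 and 4.0e-07). Camk2b, the beta subunit of CaM kinase II, lost share in XM_006514476.2, from 5.23% ± 0.55 to 2.08%. In Map2, the dendritic microtubule protein, XM_017319194.2 fell from 21.2% ± 2.81 to 8.59%, a call lost with either P15 library numbered 1 left out. Gria2, the subunit that keeps AMPA receptors impermeable to calcium, showed the split between P15 libraries again, with NM_013540.4 at 4.88% to 8.79% at P10 and at 16.4%, 4.89%, 18.5% and 5.56% at P15. In Dnm1, XR_374058.4 had a mean of 4.81% at P10 and 10.4% in the P15 libraries numbered 1, with those numbered 2 at 2.06% and 2.80%. Its XM_006497661.3 fell from 12.8% to 7.28% in the P15 libraries numbered 1. XM_006497654.4 was also called higher and XM_017315328.2 lower. Without the S119A P15 replicate 1, only XR_374058.4 of these Dnm1 transcripts stayed called. The transcripts named here of Ncam1, Camk2b, Map2, Gria2 and Dnm1 were not called with no term for the P15 libraries numbered 2.

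The change with age was then compared between genotypes. No gene, transcript share or exon differed between control and S119A in its change from P10 to P15 by edgeR at an adjusted p under 0.05, with 617 genes, 254 transcript shares and 42 exons at an unadjusted p under 0.05. DESeq2 called 1 gene, Ndn, an imprinted gene of postmitotic neurons, which held 1240, 1233, 631 and 726 CPM at P10 and 873, 1360, 955 and 1817 at P15. It changed by -0.57 in control and 0.57 in S119A, a difference of 1.14 on the log2 scale (edgeR adjusted p = 0.078). Ndn was named after its values were seen. The genotype term over both ages called no gene by edgeR either, with 366 at an unadjusted p under 0.05. The upstream exon of Snap25 was kept in 37.7% and 39.1% of reads in control and 35.1% and 37.6% in S119A at P10, and in 16.3% and 16.8% in control and 17.9% and 20.5% in S119A at P15. Both S119A libraries lay below both controls at P10 and above them at P15. The edgeR test of a difference in its change with age gave an unadjusted p of 0.096 and an adjusted p of 0.95. For the upstream exon of Gria1 the same test gave 0.55 and 0.99. These tests do not show that the genotypes change alike, since each genotype has few libraries and only 1 at P15 outside those numbered 2. The P15 libraries numbered 2 also entered these tests, with 1 term shared by both genotypes, and so bear on the difference.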

How the data were processed

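Hippocampal cDNA of 8 libraries was measured by Nanopore long reads. Per the labels and the methods of the study, minimap2 (genome mm10) and SAMtools were used for alignment and for a filter to well-mapped primary alignments, and the authors deposited unnormalized IsoQuant counts of whole reads per RefSeq transcript and library. Whether molecular identifiers were collapsed is not stated, so the depth covers counting error only. The deposited TPM of the cultures were not used here, and 0 columns of per-sample values were left unmatched.

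Transcripts were summed by gene, with 98.6% of the reads named by accession, and the 8 libraries were fitted with edgeR 4.0.16 (R 4.3.3): filterByExpr, TMM and the quasi-likelihood test, with age, genotype and a term for the P15 libraries numbered 2. Transcript shares were tested with edgeR's diffSpliceDGE and exon inclusion as odds of reads that keep against skip an exon, with at least 10 such reads per library. P-values were adjusted by Benjamini-Hochberg over all features, with a threshold of 0.05. Positions and sequences come from GENCODE vM21 on GRCm38.

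Named genes are the 3 largest called rises and the 3 largest called falls of each of 23 lists and the 6 largest each way over all genes, then the 12 largest transcripts and 12 largest exons, with switch genes and Pxn. The largest over all genes, transcripts and exons were ranked among called features whose ages did not overlap. Genes needed at least 20 CPM at the higher age, and transcripts and exons at least 50 reads in every library. Members and lists were chosen with earlier results of these data known. Alternatives were DESeq2 1.42.0 (test and size factors), limma 3.58.1, other filters, no term or no libraries numbered 2 at P15, all 12 libraries, a replicate block and each library left out. Steps were tested on simulated data. A few named features are not reported here.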

Additional observations from a re-analysis of the deposited data

Results flagged for a closer look

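In 5 of 118 groups of 4 libraries of the same age, 1 library lay apart by more than Dixon's 95% critical value for the gap over the range, and chance alone flags about 1 group in 20. In 4 of the 5 the library was the S119A P15 replicate 2. It held 9145 CPM summed over the astrocyte list against 7053 to 7217 in the other P15 libraries, 525 CPM over the vascular list against 339.5 to 346.6, and 492.5 CPM of Fabp7, the radial glia gene, against 179.8 to 225.6. In the same library the transcript NM_146120.4 of Gsn took 53.16% of the gene's reads against 76.47% to 79.56%. The remaining case was the control P15 replicate 2, where NM_026131.4 of Pdlim7 took 72.66% against 63.36% to 64.69%. Neither library sets the change with age over both genotypes, which rests on the P15 libraries numbered 1. Both enter the change given per genotype and the test of a difference between genotypes.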

How the results depend on the processing

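The 2169 called genes became 542 with no term for the P15 libraries numbered 2 and ranged from 531 to 2690 with 1 library left out. Called transcript shares, 417, became 724 with limma's diffSplice and 54 with no term, and ranged from 71 to 518 with 1 library left out. Called exons, 109, became 60 with no term and ranged from 43 to 116. The number of genes whose change differed between genotypes went from 0 to 1 with DESeq2, to 7 with no filter on low counts and to 0 to 10 with 1 library left out. With no term, Bcan went to -0.17, Folr1 to 0.071, Id3 to 0.24 and Ttr to 0.95 on the log2 scale. Pxn, not called, went to -0.14 without the control P10 replicate 1 and to -0.001 without the S119A P10 replicate 1, within a range of -0.21 (without the control P15 replicate 1) to 0.36 with 1 library left out. Under at least 1 alternative, 37 of 77 named genes, 41 of 43 transcripts and 10 of 24 exons lost their call, with the direction kept. The cause was not tested, except that with 1 P15 library numbered 1 left out, 1 remains to set the change. With the replicate number as a block, 1877 genes, 305 transcript shares and 74 exons were called, and 1 gene for the difference between genotypes. The deviations of same-numbered libraries correlated at 0.861 between the P15 groups and at -0.159 to 0.077 elsewhere, so the numbers do not pair the libraries. With 3162777 reads, the S119A P15 replicate 2 was the shallowest library.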

Other observations

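A few neuronal and progenitor genes differed widely between libraries of the same group, and were picked after their values were seen. Kcnd2, a potassium channel of dendrites, held 109, 58.8, 66.2 and 0.729 CPM at P10 and 112, 0.649, 66.3 and 1.00 at P15, so the S119A P10 replicate 2 resembled the P15 libraries numbered 2 in this gene. Nes, the intermediate filament of progenitors whose promoter drives the Cre here, held 9.09, 67.9, 77.5 and 94.8 CPM at P10 and 6.08, 74.4, 39.1 and 55.2 at P15. Gabra2, a GABA-A receptor subunit, held 30.5, 75.4, 96.3 and 110 CPM at P10 and 68.6, 25.1, 72.8 and 80.7 at P15. None of these genes was called for age.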
